A study of Mus musculus with 4 samples.

Results

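The translation initiation factor genes of mouse embryonic stem cells (ESCs) were described across 4 RNA-seq libraries in which *Ythdf2* was knocked down and put back. The genes were the rows of the deposited count table with a symbol beginning *Eif*. The 4 *Eif2ak* kinase genes, the 10 rows marked as pseudogenes by -ps and the Y-linked gene *Eif2s3y* were left out of 68 such rows. This left 53 of 50559 genes. Ratios are given for the 51 of these that averaged 10 reads or more per library, which 18586 genes did in all. The other two were *Eif2c5*, with 8, 0, 0 and 2 reads, and *Eif4e1b*, an oocyte relative of the cap-binding protein, with 3, 0, 4 and 4 reads. RefSeq lists *Eif2c5* as a noncoding gene with the synonym *Ago5*, so its symbol meets the rule although it is not an initiation factor.

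All 4 libraries were poly(A)+ RNA of the E14 ESC line, 1 library per group. Per the methods of the study, the cells carried a tdTomato reporter driven by the promoter of the retroelement MERVL, and hairpins were delivered by lentivirus to make puromycin-selected stable lines. The control line had a scrambled hairpin and the empty vector (shScram+EV). The other lines all had a hairpin against *Ythdf2*, together with the empty vector (shYthdf2+EV), wild-type YTHDF2 (shYthdf2+DF2WT) or YTHDF2 with a mutated m6A-binding site (shYthdf2+DF2Mut). Which of the study's *Ythdf2* hairpins was used is not given in the labels. Values for 4 libraries are given in this order throughout: scrambled control, knockdown, wild-type rescue and mutant rescue.

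YTHDF2 is a cytoplasmic protein that binds N6-methyladenosine (m6A) in mRNA and brings the mRNA to the decay machinery. Translation initiation begins when eIF2 delivers the initiator tRNA to the small ribosomal subunit, which is held ready by eIF1, eIF1A and eIF3. The eIF4F complex, made of the cap-binding protein eIF4E, the scaffold eIF4G and the helicase eIF4A, brings this subunit to the capped end of an mRNA. After scanning finds the start codon, eIF5 and eIF5B allow the large subunit to join. ESCs are known for lower translation than differentiated cells, and for control of it through eIF2 and the inhibitors of eIF4E.

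Total counts lay between 31533129 and 35742335 reads per library, and the 53 genes together took between 1.58% and 1.60% of them. *Ythdf2* itself had 2806, 662, 7661 and 6925 reads, in the order its hairpin and the constructs would give, although reads of a construct cannot be told from those of the gene. All 10 ESC markers were detected, and their summed level lay between 4767 and 4903 CPM (reads scaled to library size). Each group being a single library, differences could not be set against a spread between replicates. A gene is counted as higher or lower when its log2 ratio is at least 0.32 from 0, which is 25% above or 20% below. Since ratios also moved with the GC content of transcripts, values after a fit over all genes to GC content and exon length (the GC fit) are given where they end or add a call. Ratios between libraries are on the log2 scale, and the knockdown ratio is that of shYthdf2+EV to shScram+EV. Gene positions are on mm39 unless another build is named. The 95% Clopper-Pearson intervals in parentheses are on read pairs and cover counting error only. Summed levels of 12 markers of the 2-cell-like (2C-like) state were 162, 539, 172 and 482 CPM, with all 12 past the threshold in the knockdown. In bulk RNA, fewer cells of a type and less RNA per cell cannot be told apart. Genes on chromosome 12 stood apart in the knockdown, with a median log2 ratio to the control of -0.29 over 418 genes, against -0.04 to 0.04 on the other autosomes. Against the knockdown, that median was 0.19 in the wild-type rescue (other autosomes -0.07 to 0.05) and 0.03 in the mutant rescue (-0.02 to 0.06). The left-out *Eif2s3y*, a Y-linked gene for the γ subunit of eIF2, had 0, 225, 35 and 218 reads.

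Of the 51 tested genes, *Eif4a3l1* and *Eif4a3l2* differed most on knockdown. Both are copies of *Eif4a3*, the gene of the helicase that anchors the exon junction complex on spliced mRNA. The first 150 coding bases of each are shown to make plain how alike they are and where a read can tell them apart. They come from the GENCODE vM21 transcripts (GRCm38), and capitals mark the 14 positions at which the 3 genes are not all alike. In the copies the coding sequence lies in 1 exon, at chr6:136328543-136328692 for *Eif4a3l1* and chr6:116551164-116551313 for *Eif4a3l2*, both on the plus strand. That of *Eif4a3*, on the minus strand of chromosome 11, comes from a transcript of 12 exons.
Eif4a3: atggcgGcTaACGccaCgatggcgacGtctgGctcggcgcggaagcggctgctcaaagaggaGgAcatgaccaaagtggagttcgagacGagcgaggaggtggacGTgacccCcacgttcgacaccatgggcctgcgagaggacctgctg
Eif4a3l1: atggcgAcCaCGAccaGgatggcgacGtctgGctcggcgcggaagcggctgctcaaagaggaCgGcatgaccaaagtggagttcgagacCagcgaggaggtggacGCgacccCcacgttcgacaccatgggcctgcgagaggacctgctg
Eif4a3l2: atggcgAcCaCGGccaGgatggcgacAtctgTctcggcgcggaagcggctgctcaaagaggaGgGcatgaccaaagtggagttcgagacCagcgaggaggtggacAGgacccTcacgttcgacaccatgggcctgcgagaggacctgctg

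In this stretch *Eif4a3l1* differed from *Eif4a3* at 10 positions and *Eif4a3l2* at 12, and the copies differed from each other at 7. Over the aligned part of the whole transcripts the copies were 98.5% identical to each other, and 95.6% (*Eif4a3l1*) and 96.4% (*Eif4a3l2*) identical to *Eif4a3*. Of all 75-base windows of the *Eif4a3l1* transcript, 31.9% also occurred in *Eif4a3l2* and 3.67% in *Eif4a3*. Reads that aligned to several places were left out by the authors, so the counts of both copies come from the rest of the sequence, and which copy a read belongs to is less certain than for other genes.

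The regions around the annotated start also differed between a copy and its parent. The windows below are from RefSeq (GRCm38.p6) and run from 250 bases before to 50 bases after the start. They are chr6:136327289-136327588 on the plus strand for *Eif4a3l1* and chr11:119299994-119300293 on the minus strand for *Eif4a3*, and capitals mark the letters TATAA.
Eif4a3l1: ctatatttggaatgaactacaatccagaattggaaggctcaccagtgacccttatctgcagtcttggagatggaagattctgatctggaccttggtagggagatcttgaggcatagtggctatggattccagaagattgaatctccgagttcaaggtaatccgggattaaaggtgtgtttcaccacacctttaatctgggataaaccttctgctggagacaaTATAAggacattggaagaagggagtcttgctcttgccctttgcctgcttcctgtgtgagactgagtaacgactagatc
Eif4a3: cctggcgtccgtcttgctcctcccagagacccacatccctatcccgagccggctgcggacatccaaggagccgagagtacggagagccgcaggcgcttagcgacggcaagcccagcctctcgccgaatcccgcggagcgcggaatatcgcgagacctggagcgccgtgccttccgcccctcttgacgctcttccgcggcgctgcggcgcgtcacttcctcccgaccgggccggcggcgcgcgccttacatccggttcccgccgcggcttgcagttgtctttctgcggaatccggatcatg

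The window of *Eif4a3l1* had a GC content of 45% with 3 CG dinucleotides, and that of *Eif4a3* 68.7% with 42. In *Eif4a3l1* the letters TATAA, searched between 45 and 16 bases before the start, begin 28 bases before it. On the gene's strand 3.89% of 32851 windows held TATAA there, and 1.96% held TTATA, the same letters on the other strand. Among the 40 initiation factor genes with a window, *Eif4a3l1* was the only one with TATAA at this place, and none had TTATA. The other copy, *Eif4a3l2*, had no window and was not examined.

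Many mRNAs of the translation machinery begin with a run of pyrimidines, through which mTOR signalling controls their translation. Runs of C or T of at least 6 bases that overlap the stretch from 5 bases before to 10 bases after the start were found in 11 of the 40 genes, and in 26.9% of their 52 windows against 24.4% of all windows. The 30 bases around the start are shown for 3 genes with a long run. They are also shown for the 3 genes of eIF4F and its cofactors that were lower on knockdown. Capitals mark the longest run that overlaps the stretch from 5 bases before to 10 bases after the start. Runs outside that stretch, such as tcttccc in *Eif4b*, are in small letters. The positions are chr7:108934400-108934429 (*Eif3f*, plus), chr16:20498802-20498831 (*Eif2b5*, plus), chrX:94212637-94212666 (*Eif2s3x*, minus), chr4:137993440-137993469 (*Eif4g3*, plus), chr15:102073758-102073787 (*Eif4b*, plus) and chr16:23107453-23107482 (*Eif4a2*, plus) on GRCm38.p6.
Eif3f: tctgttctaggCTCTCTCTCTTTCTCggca
Eif2b5: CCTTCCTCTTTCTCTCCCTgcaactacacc
Eif2s3x: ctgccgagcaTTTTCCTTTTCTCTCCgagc
Eif4g3: aaagctccgagcggccgTCCTgccggactg
Eif4b: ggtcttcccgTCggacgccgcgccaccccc
Eif4a2: ccgcggaaaCCCCgtaggagcagggcggcc

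The run was 15 bases in *Eif3f*, 21 in *Eif2b5* (it begins before the stretch shown) and 16 in *Eif2s3x*, and 2 to 4 bases in the other three. On knockdown the 10 tested genes with such a run had a median log2 ratio of -0.00, and the 29 tested genes without one a median of -0.07. Counting only runs that overlap that stretch, genes lower on knockdown stood at both ends, with the long run of *Eif2b5* and the short one of *Eif4b*.

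Levels were compared between genes as scaled CPM divided by exon length in kilobases (RPKM). They ran from *Eif4a1*, the main helicase of eIF4F, at 958, 870, 897 and 906 RPKM, down to *Eif4e3*, a minor cap-binding protein, at 0.406, 0.219, 0.204 and 0.220 RPKM. Next to *Eif4a1* stood *Eif5a*, which helps ribosomes form difficult peptide bonds, at 361, 389, 420 and 324 RPKM. *Eif1*, which guards start codon choice, came after it at 321, 396, 383 and 330 RPKM. The 12 core subunits of eIF3, the scaffold on the small ribosomal subunit, had closely similar levels. The highest of the 12 was 1.86, 1.76, 1.59 and 2.17 times the lowest in the 4 libraries. The loosely bound subunit eIF3j, from *Eif3j1* and *Eif3j2*, had counted levels lower than all 12 in every library. Of the 75-base windows, 37.7% in *Eif3j1* and 87.4% in *Eif3j2* also occur in the other gene. Reads aligned to several places were left out but the whole exon length was used, so these levels are understated to an unknown degree.

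**Figure D1:**
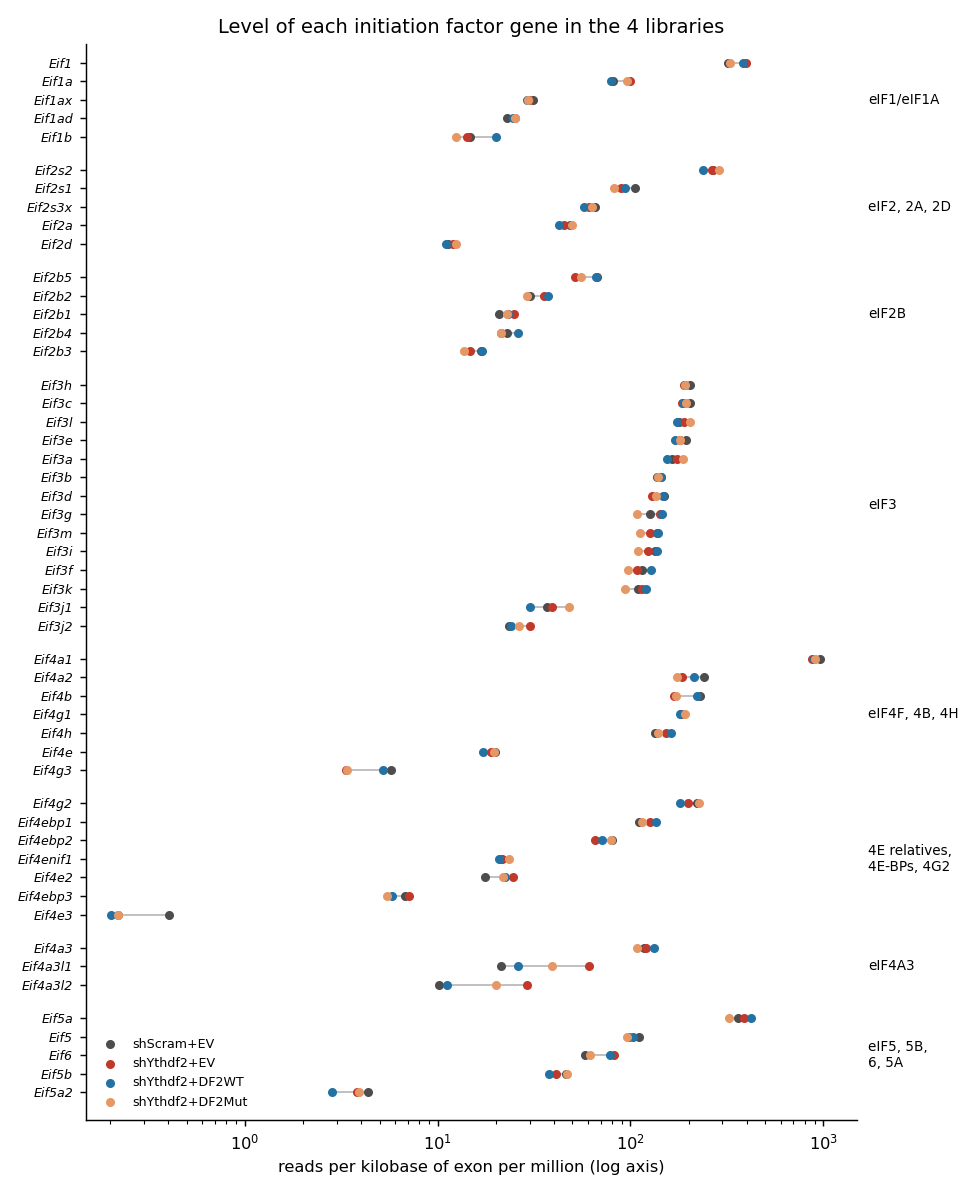
Level of each of the 51 tested initiation factor genes, in RPKM on a log axis, with 1 point for each of the 4 libraries and genes grouped by role. *Eif4a1* is at the top of the range near 900 and *Eif4e3* at the bottom under 0.5, and the points of *Eif4a3l1*, *Eif4a3l2* and *Eif4e3* lie farthest apart.

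The comparison of shYthdf2+EV with shScram+EV asked which transcripts depend on YTHDF2. Of the 51 genes, 41 lay within the threshold. Higher in the knockdown were 5 genes (9.80%), where 24.1% of all tested genes were: the *Eif4a3* copies, *Eif6*, *Eif4e2* and *Eif3j2*. Lower were 5 (9.80%), where 23.4% of all were: *Eif4e3*, *Eif4g3*, *Eif4b*, *Eif2b5* and *Eif4a2*. After the GC fit *Eif3j2* was within the threshold at 0.19, and *Eif3e* (-0.42), *Eif2s1* (-0.39), *Eif3m* (-0.39) and *Eif5a2* (-0.37) were past it. This made 4 genes higher and 9 lower, beside 21.7% and 24% of the 16988 genes fitted. At the 2-fold threshold of the study there were 2 genes, the *Eif4a3* copies, or 3.92% of the 51 beside 12.8% of all genes. Most of these genes are highly expressed, so the same was done for those averaging 500 reads or more. There 18.8% of 48 initiation factor genes and 26.8% of 8542 genes passed the threshold in either direction. The median log2 ratio was -0.05 over the 51 genes, with quartiles of -0.14 and 0.13, and -0.00 over all tested genes, with quartiles of -0.30 and 0.31. Counting intervals lay above 0 for 17 of the 51 genes and below 0 for 21, so most of these small ratios were larger than counting error.

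**Figure D2:**
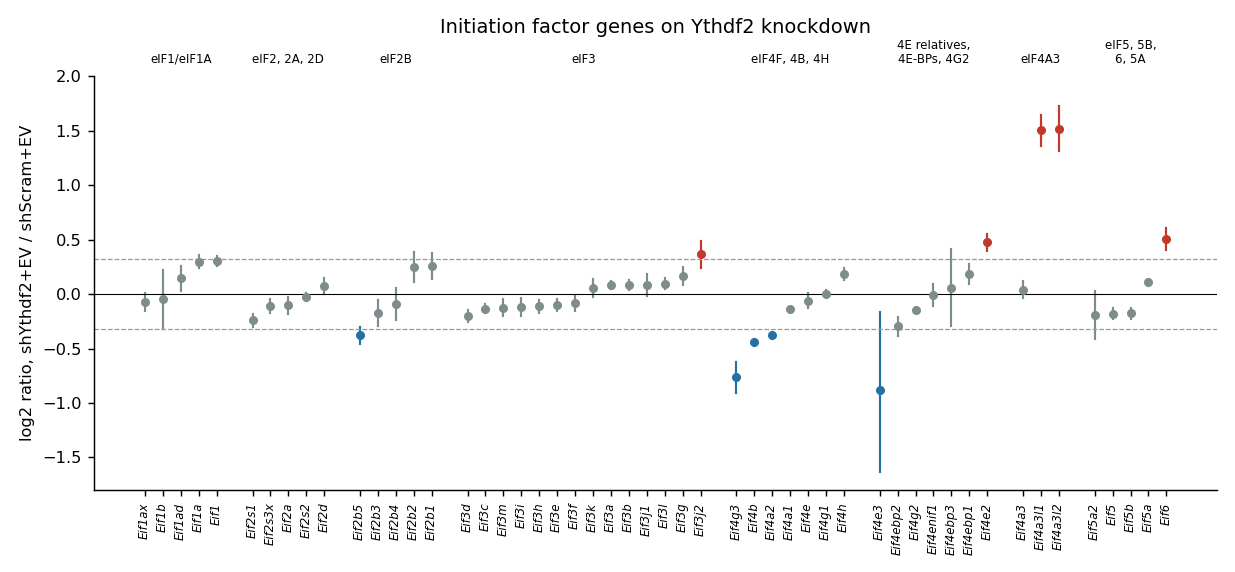
Knockdown ratio (shYthdf2+EV over shScram+EV, log2) of each of the 51 genes, grouped by role, with 95% counting intervals as bars and dashed lines at 0.32 on either side of 0. Red points are genes counted as higher and blue points genes counted as lower, and the *Eif4a3* copies stand near 1.5 while *Eif4a3* is near 0.

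The *Eif4a3* copies were highest in the knockdown and lowest in the scrambled control. *Eif4a3l1* (mm39 chromosome 6, 136304537 to 136306981) had 1061, 3431, 1355 and 1958 reads. The knockdown and the mutant rescue lay above the other two libraries. The log2 ratio of *Eif4a3l1* was 1.51 (1.37 to 1.65) on knockdown and -1.21 (-1.34 to -1.08) for wild-type rescue against knockdown. For mutant rescue against knockdown it was -0.63 (-0.75 to -0.52), and the mutant rescue stood 0.58 (0.44 to 0.72) above the wild-type rescue. The level was thus 284% of the control in the knockdown, 123% with wild-type YTHDF2 and 183% with the mutant.

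*Eif4a3l2* (chromosome 6, 116527132 to 116529563) had 506, 1651, 581 and 998 reads and the same order of libraries. The knockdown ratio was 1.52 (1.32 to 1.73). Against the knockdown, wild-type rescue stood at -1.38 (-1.58 to -1.18) and mutant rescue at -0.55 (-0.71 to -0.39). The mutant rescue stood 0.83 (0.62 to 1.04) above the wild-type rescue. Relative to the control its level was 287%, 110% and 196% in the other libraries. The summed markers of the 2C-like state were likewise higher in the knockdown and the mutant rescue than in the other two. So was the sum of 7 primitive endoderm markers, at 16.2, 23.1, 12.6 and 24.1 CPM, of which 1 was at 0 in the control and none elsewhere. Of the 6 tested, 4 were higher on knockdown, beside 24.1% of all tested genes. *Gata4* did not share the order, with 133, 121, 72 and 71 reads, and *Sox17* had 20, 42, 16 and 20. The part of either set of markers in the levels of the copies was not tested. Since the copies share sequence, they do not count as separate observations.

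The parent gene did not share this pattern. *Eif4a3* (chromosome 11, 119179189 to 119190869) had 5431, 6361, 6346 and 5050 reads. Its knockdown ratio was 0.04 (-0.03 to 0.12), and it stood at -0.28 (-0.36 to -0.20) for mutant against wild-type rescue. *Eif4a3* itself, at 117, 121, 132 and 109 RPKM, stayed above its copies in every library, with *Eif4a3l1* reaching 60.7 RPKM and *Eif4a3l2* 29.2 RPKM in the knockdown.

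**Figure D3:**
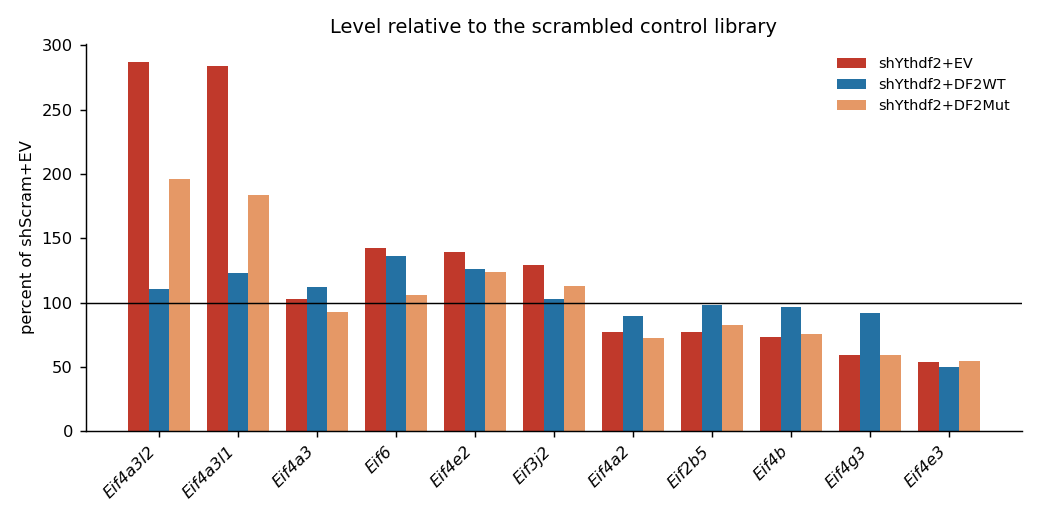
Level as percent of shScram+EV in the other 3 libraries for *Eif4a3*, its copies and the other 8 genes past the threshold on knockdown, 1 library per bar and no replicates. The copies stand at 284% and 287% in the knockdown and nearest 100% with wild-type YTHDF2, and *Eif4g3*, *Eif4b* and *Eif2b5* are above 90% only in the wild-type rescue.

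Genes of the cap complex eIF4F and its cofactors made up 3 of the 5 lower genes. *Eif4g3*, a minor paralog of the scaffold eIF4G (chromosome 4, 137719090 to 137934397), had 1923, 1288, 1836 and 1151 reads. Its reads were high in the control and wild-type rescue and low in the knockdown and mutant rescue. The knockdown ratio was -0.76 (-0.91 to -0.62). Against the knockdown, wild-type rescue stood at 0.64 (0.49 to 0.79) and mutant rescue at 0.01 (-0.15 to 0.18). Summed levels of 6 trophectoderm markers, none at 0 in any library, were 79.4, 52.8, 73.4 and 57.2 CPM. On knockdown 4 of the 6 were lower, among them *Krt8* with 1217, 670, 1193 and 553 reads, while *Eomes* and *Cdx2* had ratios of 0.13 and 0.26. The part of these markers in the values of *Eif4g3* was not tested. The main paralog of *Eif4g3*, *Eif4g1*, had 31982, 36507, 32937 and 33894 reads, with a knockdown ratio of 0.00 (-0.03 to 0.04). *Eif4g1* held between 98.9% and 105% of the control in every library.

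*Eif4b*, which stimulates the helicase eIF4A (chromosome 15, 101982208 to 102005608), had 27908, 23334, 27958 and 21209 reads. *Eif4b* split the libraries as *Eif4g3* did. For *Eif4b* the knockdown ratio was -0.44 (-0.48 to -0.41), and against the knockdown wild-type rescue stood at 0.39 (0.35 to 0.42) and mutant rescue at 0.04 (0.00 to 0.08). Relative to the control, *Eif4b* was at 73.5% in the knockdown, 96.2% after wild-type rescue and 75.5% after mutant rescue.

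*Eif4a2*, the minor helicase paralog (chromosome 16, 22924846 to 22932882), had 34564, 30259, 32151 and 25323 reads. *Eif4a2* had a knockdown ratio of -0.38 (-0.41 to -0.35), and against the knockdown it stood at 0.21 (0.18 to 0.25) after wild-type rescue and -0.08 (-0.11 to -0.05) after mutant rescue. After wild-type rescue *Eif4a2* was at 89.3% of the control. *Eif4a1* had 56927, 58824, 55510 and 54169 reads, with a knockdown ratio of -0.14 (-0.16 to -0.12), and it lay between 90.8% and 94.5% of the control. Of the 75-base windows of *Eif4a1*, 25.4% also occur in the pseudogene *Eif4a-ps4*.

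The remaining genes of eIF4F and its cofactors stayed within the threshold on knockdown. *Eif4e*, the cap-binding subunit, had 6395, 6982, 5800 and 6403 reads, with a knockdown ratio of -0.06 (-0.13 to 0.01). *Eif4h*, a cofactor like *Eif4b*, had 10601, 13697, 13340 and 11014 reads and a ratio of 0.18 (0.13 to 0.24). The group of 7 therefore had 3 genes lower, beside 23.4% of all tested genes, none higher, beside 24.1%, and a median log2 ratio of -0.14 on knockdown. Against the knockdown, 2 of the 7 were higher after wild-type rescue, where 22.3% of all tested genes were, and none was past the threshold after mutant rescue, where 13.5% of all were higher and 17.4% lower.

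Among the relatives and inhibitors of eIF4E, *Eif4e2* was higher. It encodes a cap-binding protein that does not bind eIF4G and represses translation (chromosome 1, 87141633 to 87168210). *Eif4e2* had 4589, 7254, 6036 and 5712 reads. The 3 hairpin libraries all lay above the control. For *Eif4e2* the knockdown ratio was 0.47 (0.40 to 0.55), and against the knockdown wild-type rescue stood at -0.14 (-0.21 to -0.07) and mutant rescue at -0.17 (-0.24 to -0.10). Of its counted exon bases, 11.8% overlap another gene.

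*Eif4e3* had 88, 54, 46 and 48 reads. The knockdown ratio was -0.88 (-1.64 to -0.17), and against the knockdown the rescues stood at -0.10 (-0.97 to 0.75) and 0.01 (-0.85 to 0.85). Wild-type rescue stayed below the control, at -0.99 (-1.79 to -0.24). With so few reads, a partial return with either construct could not be told from none.

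Of the eIF4E-binding inhibitors, *Eif4ebp1* had 3444, 4459, 4392 and 3593 reads and *Eif4ebp2* 4533, 4205, 4184 and 4518. They lay on opposite sides of 0 on knockdown, at 0.19 (0.10 to 0.28) and -0.29 (-0.38 to -0.21), both within the threshold. In the mutant rescue both were close to the control, at 104% and 99.0%. *Eif4ebp3*, with 248, 294, 221 and 200 reads, had a ratio of 0.06 (-0.30 to 0.42). *Eif4g2*, a scaffold that lacks the eIF4E site, had 54296, 55709, 46158 and 55869 reads and was lowest with wild-type YTHDF2, at 81.6% of the control.

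Of the eIF2B genes, which recharge eIF2 with GTP, *Eif2b5* was lower. This catalytic subunit (chromosome 16, 20317544 to 20328075) had 5627, 4920, 5750 and 4669 reads. The control and wild-type rescue were high and the knockdown and mutant rescue low. For *Eif2b5* the knockdown ratio was -0.38 (-0.46 to -0.30), and against the knockdown it stood at 0.35 (0.27 to 0.43) after wild-type rescue and 0.10 (0.02 to 0.18) after mutant rescue. The other four genes of the complex lay between -0.18 (*Eif2b3*) and 0.26 (*Eif2b1*) on knockdown. *Eif2b2* had 1526, 2060, 1967 and 1476 reads, with a ratio of 0.25 (0.11 to 0.38). It lies on chromosome 12, whose median ratio had the opposite sign. *Eif2b4* had 1516, 1619, 1805 and 1422 reads, with a ratio of -0.09 (-0.23 to 0.05).

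The genes of eIF2, and *Eif2a* and *Eif2d*, were within the threshold in all 5 comparisons. With the GC fit *Eif2s1* was past it on knockdown and at -0.47 for mutant against wild-type rescue. *Eif2s1*, for the α subunit that stress kinases phosphorylate, had 10531, 10131, 9756 and 8281 reads, with a knockdown ratio of -0.24 (-0.30 to -0.19). It lies on chromosome 12, whose median was -0.29 in that comparison, and the part of the chromosome in its ratio was not tested. *Eif2s2*, for the β subunit, had 21312, 23790, 19749 and 23107 reads and a ratio of -0.03 (-0.07 to 0.01). *Eif2s3x*, the X-linked gene of the γ subunit, had 7441, 7845, 6779 and 7218 reads and a ratio of -0.11 (-0.17 to -0.04), beside 0 and 225 reads of *Eif2s3y* in the control and the knockdown. *Eif2a*, an alternative carrier of initiator tRNA, had 5426, 5750, 4978 and 5588 reads and a ratio of -0.10 (-0.18 to -0.03).

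Of the 14 eIF3 genes, 1 was higher on knockdown, beside 24.1% of all tested genes, and none was lower, beside 23.4%, with a median log2 ratio of -0.01. *Eif3j2* had 1791, 2629, 1914 and 2032 reads and a ratio of 0.37 (0.24 to 0.49), and its paralog *Eif3j1* had 2809, 3388, 2383 and 3705 reads and a ratio of 0.08 (-0.02 to 0.19). These genes share sequence: 87.4% of the 75-base windows of *Eif3j2* also occur in *Eif3j1*, so the reads of each rest on the smaller unshared part. The 12 core subunits lay between -0.20 (*Eif3d*) and 0.16 (*Eif3g*) on knockdown.

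Among the start codon factors none passed the threshold on knockdown. *Eif1* had 12784, 17936, 15905 and 13217 reads, with a knockdown ratio of 0.30 (0.26 to 0.35). *Eif1a* had 8251, 11546, 8402 and 9893 reads and a ratio of 0.30 (0.24 to 0.36), just inside the threshold of 0.32. They differed in the rescues before the GC fit: *Eif1a* was back at 97.8% of the control with wild-type YTHDF2 and at 119% with the mutant, and *Eif1* at 119% and 103%. After the fit the wild-type rescue stood 0.08 (*Eif1a*) and 0.15 (*Eif1*) above the control. The mutant to wild-type ratio was then -0.02 for both. *Eif1ax*, the X-linked gene of eIF1A, had 4808, 5204, 4677 and 4551 reads and a ratio of -0.07 (-0.15 to 0.01). *Eif1b*, a minor paralog of *Eif1*, had 427, 470, 607 and 362 reads and was highest in the wild-type rescue, at 136% of the control.

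Of the genes for subunit joining and eIF5A, *Eif6* was higher on knockdown. Its protein keeps the large ribosomal subunit from joining early and is needed to make that subunit. *Eif6* (chromosome 2, 155661757 to 155668845) had 2731, 4416, 3868 and 2919 reads, and the mutant rescue was nearer to the control than the wild-type rescue was. For *Eif6* the knockdown ratio was 0.51 (0.41 to 0.61), and against the knockdown wild-type rescue stood at -0.06 (-0.15 to 0.02) and mutant rescue at -0.42 (-0.52 to -0.32). The rescues stood closer together after the GC fit, at -0.29 and -0.23. *Eif5*, which triggers GTP hydrolysis by eIF2 and lies on chromosome 12, had 13859, 13930, 13438 and 12113 reads and a ratio of -0.18 (-0.23 to -0.13).

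*Eif5b*, the GTPase of subunit joining, had 11446, 11521, 9702 and 11579 reads and a ratio of -0.18 (-0.23 to -0.12) on knockdown. *Eif5a* had 23926, 29318, 28965 and 21604 reads, with a ratio of 0.11 (0.07 to 0.14). Its paralog *Eif5a2* had 694, 689, 469 and 622 reads, with a ratio of -0.20 (-0.41 to 0.02). *Eif5a2* was lowest in the wild-type rescue, at 64.9% of the control, and *Eif5a* was highest there, at 116%.

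The wild-type rescue against the knockdown had 4 genes higher (7.84%, beside 22.3% of all tested genes): *Eif4g3*, *Eif1b*, *Eif4b* and *Eif2b5*. There were 6 lower (11.8%, beside 21.0%): the *Eif4a3* copies, *Eif5a2*, *Eif3j1*, *Eif1a* and *Eif3j2*. The copies were the 2 genes past 2-fold (3.92%, beside 10.7%). The log2 ratios of *Eif1b*, *Eif5a2* and *Eif3j1* were 0.50 (0.25 to 0.75), -0.43 (-0.67 to -0.18) and -0.38 (-0.49 to -0.27), and these genes were within the threshold on knockdown. After the GC fit *Eif2b5* (0.22), *Eif5a2* (-0.10), *Eif3j1* (-0.19), *Eif1a* (-0.06) and *Eif3j2* (-0.07) were within the threshold. *Eif4a2* (0.49), *Eif3m* (0.44) and *Eif4ebp3* (-0.43) were past it, which made 5 genes higher and 3 lower, beside 20.2% and 18.3% of all. The median was -0.02 over the 51 genes and 0.00 over all.

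The mutant rescue against the knockdown had the narrowest range over the 51 genes, from -0.63 to 0.31. No gene was higher, where 13.5% of all tested genes were, and 5 were lower (9.80%, beside 17.4%): the *Eif4a3* copies, *Eif6*, *Eif3g* and *Eif4ebp3*. None was past 2-fold, where 6.03% of all were. *Eif3g*, an eIF3 subunit that takes part in scanning, had 4273, 5448, 5099 and 3660 reads, with a ratio of -0.40 (-0.48 to -0.31). The ratio of *Eif4ebp3* was -0.38 (-0.76 to -0.00). After the GC fit the copies remained lower, while *Eif6* (-0.23), *Eif3g* (-0.18) and *Eif4ebp3* (-0.20) were within the threshold and *Eif4ebp2* (0.38) and *Eif3j1* (0.32) were higher. The shares of all genes were then 13.1% higher and 12.7% lower. Of the genes lower on knockdown, *Eif4g3* and *Eif4b* stayed at 0.01 and 0.04, *Eif2b5* at 0.10 and *Eif4a2* at -0.08. The medians were -0.02 over the 51 genes and 0.01 over all. This comparison and those of the wild-type rescue and the knockdown share the knockdown library, so the 3 sets of values are not independent of each other.

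The mutant was compared with the wild-type rescue to ask which differences go with m6A binding. Higher with the mutant were 5 genes (9.80%, beside 23.6% of all): the *Eif4a3* copies, *Eif3j1*, *Eif5a2* and *Eif4g2*. Lower were 10 (19.6%, beside 27.0%), and none was past 2-fold, where 11.6% of all were. With upper-quartile scaling 4 were higher and 14 lower. The 10 were *Eif1b*, *Eif4g3*, *Eif3g*, *Eif3f*, *Eif5a*, *Eif2b2*, *Eif3k*, *Eif6*, *Eif4b* and *Eif3i*. After the GC fit 7 of these 10 were within the threshold, among them the eIF3 genes *Eif3g* (-0.04), *Eif3f* (-0.27), *Eif3k* (-0.10) and *Eif3i* (-0.22) and also *Eif2b2* (-0.05), and *Eif5a2* (0.06) was no longer higher. *Eif4g2* (-0.02) was no longer higher either. The 6 genes newly lower were *Eif4a2* (-0.65), *Eif3m* (-0.48), *Eif2s1* (-0.47), *Eif2b3* (-0.43), *Eif5* (-0.39) and *Eif1ax* (-0.36). Newly higher were *Eif4ebp2* (0.36) and *Eif3l* (0.32). This made 5 genes higher and 9 lower, beside 19.4% and 22.5% of all. *Eif1b* had the lowest log2 ratio, at -0.70 (-0.97 to -0.43), followed by *Eif4g3* at -0.62 (-0.78 to -0.47). *Eif3f*, with 5449, 5859, 6358 and 4633 reads, had a ratio of -0.41 (-0.48 to -0.33), and *Eif3g* one of -0.43 (-0.52 to -0.34). *Eif3j1* stood 0.69 (0.58 to 0.79) higher with the mutant, *Eif5a2* 0.46 (0.20 to 0.70) and *Eif4g2* 0.32 (0.30 to 0.35). *Eif5b* was within the threshold at 0.30 (0.25 to 0.36). The medians were -0.03 over the 51 genes and -0.01 over all.

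The knockdown ratio and this ratio share no library. Over the 51 genes their Spearman correlation was 0.11, and -0.00 over 49 genes without the *Eif4a3* copies. Pearson's correlation was 0.40 and 0.08. Genes within these libraries are not independent replicates, so this is a description. Of the 5 genes higher on knockdown, 3 had a mutant to wild-type ratio above 0, and of the 5 lower genes 4 had one below 0. Of the 41 genes in between, 21 were above and 20 below.

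**Figure D4:**
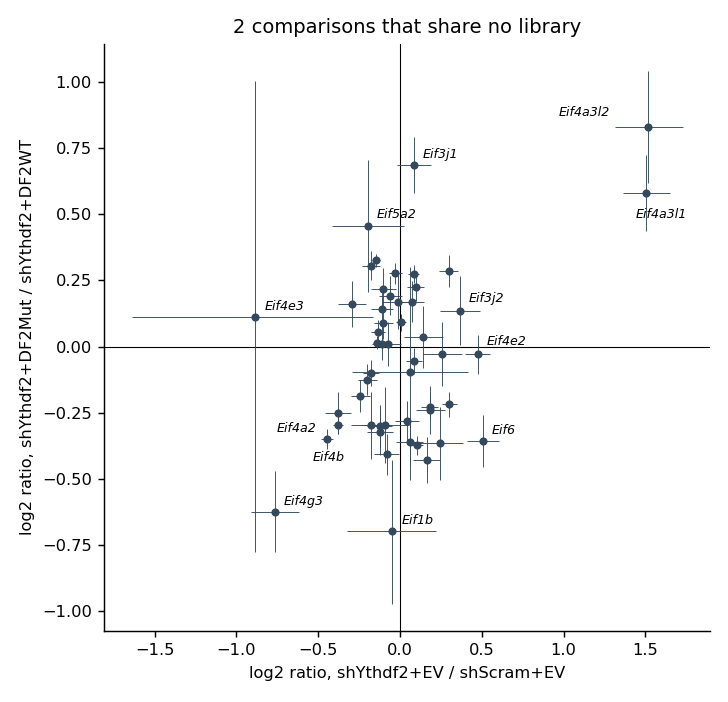
Knockdown ratio (shYthdf2+EV over shScram+EV, log2, x axis) against the ratio of mutant to wild-type rescue (shYthdf2+DF2Mut over shYthdf2+DF2WT, log2, y axis) for 51 genes, with 95% counting intervals as bars. The *Eif4a3* copies are at the upper right and *Eif4g3* and *Eif4b* at the lower left. The 49 genes other than the copies form no line (Spearman -0.00).

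The wild-type rescue against the control had 3 genes higher (5.88%, beside 19.1% of all) and 2 lower (3.92%, beside 14.9%). Scaled by total counts alone, 7 were higher and 2 lower. None was past 2-fold, where 6.89% of all were. The higher genes were *Eif1b* at 0.45 (0.19 to 0.71), *Eif6* at 0.44 (0.34 to 0.54) and *Eif4e2* at 0.34 (0.26 to 0.42), and the lower ones *Eif4e3* at -0.99 (-1.79 to -0.24) and *Eif5a2* at -0.62 (-0.87 to -0.38). After the GC fit *Eif1b* (0.26) and *Eif6* (0.20) were within the threshold, *Eif4e2* (0.40), *Eif4e3* (-0.87) and *Eif5a2* (-0.47) stayed past it, and *Eif4ebp3* (-0.39) was lower. The shares of all genes were then 14.4% higher and 12.5% lower. Without the fit *Eif4g3*, *Eif4b* and *Eif2b5* lay between -0.13 and -0.03 of it.

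Ratios that involve the wild-type rescue moved with the GC content of the transcripts. Over the 51 genes the Spearman correlation of GC content with the log2 ratio was 0.62 for wild-type rescue against control, 0.34 for wild-type rescue against knockdown and -0.45 for mutant against wild-type rescue. Over 8483 genes averaging 500 reads or more these were 0.58, 0.44 and -0.51, so the relation was one of the whole libraries. For knockdown against control it was 0.31 over the 51 genes and 0.00 over the 8483, and for mutant rescue against knockdown -0.38 and -0.28. For mutant against wild-type rescue the 25 genes of lower GC content had a median log2 ratio of 0.11 and the other 26 one of -0.22. The part of GC content in single ratios was estimated by a fit over all genes to GC content and exon length. After it the mutant to wild-type ratio was -0.70 for *Eif4g3*, -0.35 for *Eif4b*, -0.65 for *Eif4a2*, 0.81 for *Eif4a3l1*, 1.08 for *Eif4a3l2* and 0.50 for *Eif3j1*. It was -0.08 for *Eif2b5*, -0.04 for *Eif3g*, -0.11 for *Eif5a*, 0.05 for *Eif6* and -0.02 for *Eif4g2*, all within the threshold. On knockdown the fit left the ratio of *Eif4g3* at -0.71, of *Eif4b* at -0.41, of *Eif2b5* at -0.35, of *Eif6* at 0.49 and of *Eif4e2* at 0.51, and it moved *Eif4a2* to -0.52.

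**Figure D5:**
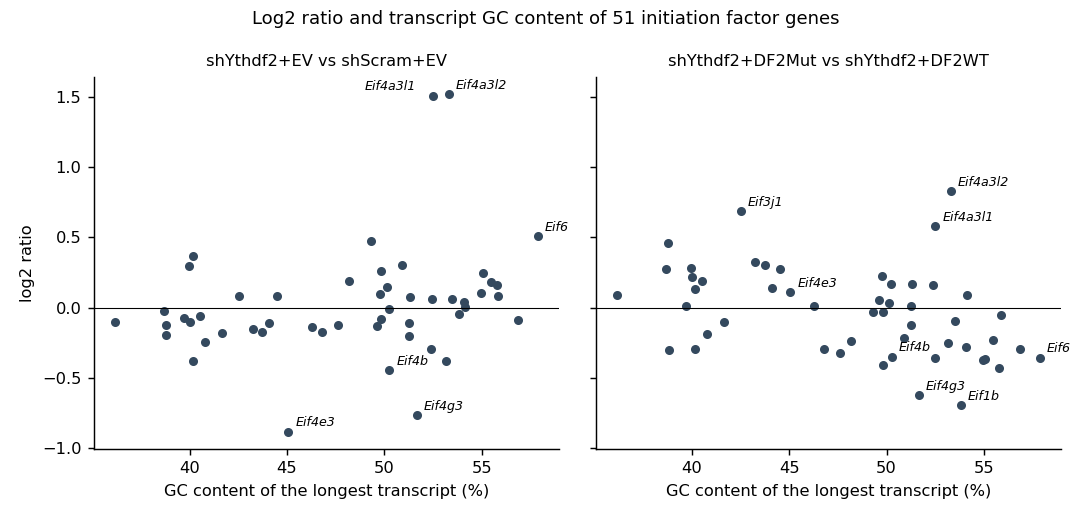
GC content of the longest transcript (x axis, percent) against the log2 ratio (y axis) for 51 initiation factor genes, for knockdown against control on the left and mutant against wild-type rescue on the right. On the right the ratios lie lower at higher GC content (Spearman -0.45), with the *Eif4a3* copies and *Eif3j1* above the other genes of similar GC content.

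The letters GGACT, a common form of the m6A consensus, were counted on the sense strand of the longest transcript of each gene. Their density had a median of 1.15 per kilobase in the 51 genes and 1.02 in 16988 tested genes with a transcript. It ran from 0 in *Eif3e*, *Eif3g*, *Eif3k* and *Eif4ebp3* to 2.67 in *Eif6*, and across the 51 genes its Spearman correlation with the knockdown ratio was 0.06. There were 11 such sites in *Eif4g3*, 4 in *Eif6*, 2 in *Eif4a3l1* and 1 in *Eif4a3l2*. A match is no evidence of methylation.

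Ratios of levels between paralogs, taken per kilobase within a library, do not depend on library scaling. On a linear scale *Eif4g1* over *Eif4g3* was 32.0 (29.97 to 34.2), 54.5 (50.4 to 59.1), 34.5 (32.3 to 36.9) and 56.7 (52.1 to 61.6), so the knockdown and the mutant rescue stood apart from the other two with no overlap of counting intervals. *Eif4a1* over *Eif4a2* was 3.99 (3.92 to 4.07), 4.72 (4.62 to 4.81), 4.19 (4.11 to 4.27) and 5.19 (5.08 to 5.30), in the same split of libraries. *Eif1a* over *Eif1ax* was 2.58, 3.34, 2.70 and 3.27, again in that split, with counting intervals from 2.45 to 2.84 over the control and wild-type rescue and from 3.11 upward over the other two.

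Apart from *Eif1* over *Eif1b*, the other pairs split the libraries differently. *Eif4e* over *Eif4e2* was 1.12 (1.06 to 1.18) in the control and 0.775 (0.740 to 0.812), 0.774 (0.735 to 0.814) and 0.902 (0.858 to 0.950) in the libraries with the *Ythdf2* hairpin. *Eif4ebp1* over *Eif4ebp2* was 1.38 (1.30 to 1.47), 1.93 (1.82 to 2.05), 1.91 (1.80 to 2.03) and 1.45 (1.36 to 1.54), with the mutant rescue near the control. *Eif5a* over *Eif5a2* was 82.6, 102, 148 and 83.2, highest in the wild-type rescue, and *Eif1* over *Eif1b* was 21.8, 27.8, 19.1 and 26.6.

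Regulators and partners of these factors were described from lists. Of 8 genes for the eIF2 kinases and the opposing phosphatase, 2 were higher and 1 lower on knockdown, beside 24.1% and 23.4% of all tested genes. *Ppp1r15a* and *Ppp1r15b*, which direct the phosphatase to eIF2, had log2 ratios of 0.41 (0.25 to 0.57) and 0.37 (0.29 to 0.46), and *Eif2ak1* one of 0.19 (0.07 to 0.31). *Eif2ak4*, the kinase that senses amino acid shortage, had -0.38 (-0.53 to -0.23), its activator *Gcn1* -0.19 (-0.24 to -0.13) and *Eif2ak2* -0.01 (-0.18 to 0.16). Between mutant and wild-type rescue, 3 of the 8 were higher with the mutant and none lower, beside 23.6% and 27.0% of all.

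Of 25 tested partners without the *Eif* symbol, 1 was higher and 3 were lower on knockdown, beside 24.1% and 23.4% of all. The higher gene was *Mcts1*, a reinitiation factor, with 655, 1235, 859 and 824 reads, with a knockdown ratio of 0.73 (0.53 to 0.93). *Ncbp2*, of the nuclear cap-binding complex, and the S6 kinase gene *Rps6kb2* followed at 0.31 (0.22 to 0.41) and 0.28 (0.06 to 0.50). *Ctif*, a scaffold related to eIF4G, had 549, 353, 560 and 329 reads and a ratio of -0.82 (-1.10 to -0.54), high and low in the same libraries as *Eif4g3*. *Bzw2*, a mimic of eIF5, and *Pdcd4*, an inhibitor of eIF4A, had -0.64 (-0.72 to -0.56) and -0.56 (-0.74 to -0.38).

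Of 12 elongation and termination factor genes, 4 were lower on knockdown and none higher, beside 23.4% and 24.1% of all. Those 4 were higher in the wild-type rescue than in the knockdown, where 22.3% of all were. One of them, *Eef1a2*, had only 32, 29, 43 and 38 reads, and the counting interval of its knockdown ratio was -1.40 to 0.83. *Eef2k*, the kinase that slows elongation, had 568, 390, 588 and 352 reads, with a knockdown ratio of -0.73 (-0.999 to -0.46). *Eef1a1*, which brings aminoacyl-tRNA to the ribosome, had 321276, 267085, 318695 and 251498 reads and a ratio of -0.45 (-0.46 to -0.44). Both were high in the control and wild-type rescue and low in the knockdown and mutant rescue. *Eefsec*, for selenocysteine, had -0.39 (-0.58 to -0.20). At the other end were *Eef1b2* at 0.26 (0.22 to 0.30), *Gspt2* at 0.25 (0.02 to 0.48) and *Eef1d* at 0.18 (0.11 to 0.25).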

How the data were processed

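The deposited table holds read counts per gene, made by the authors as follows. Per the file headers, featureCounts 2.0.3 counted reads at exons summed by gene symbol on the mm39 RefSeq annotation, without regard to strand and in units of single mates rather than pairs. Reads aligned to several places or overlapping several genes were left out. The submitters' processing notes name fastp 0.19.4, HISAT2 2.2.1, DESeq2 1.40.2 and mm10, which differs from the build in the header. The mm39 coordinates printed are those of the deposited table, and sequences are from GRCm38. The table also gives exon length in bases, as deposited. It had 0 sample columns without a label. Antisense and overlapping genes are uncertain.

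Libraries were placed in groups by title. Counts were scaled by edgeR 4.0.16 (R 4.3.3) TMM factors (0.976, 1.01, 1.01 and 1.01) computed on genes that averaged 10 reads or more. Log2 ratios used a prior count of 0.5. Genes past a log2 ratio of 0.32 in either direction were counted beside the share of all tested genes past it, as were genes past the 2-fold threshold of the study. No p-value was computed, since a group is 1 library. A floor of 3 counts is 0.0839 to 0.0951 CPM. Reads from amplified DNA are not independent molecules. The scaling and interval code was tested on simulated data.

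GC content was that of the longest GENCODE vM21 transcript, found for all 51 genes (100%) and 91.4% of all tested genes, with a cubic fit (degree 3) to GC content and log2 exon length. Named in full were, per comparison, the 5 highest and 5 lowest genes that averaged 50 reads or more, genes past 2-fold, 12 core factors, *Ythdf2*, and the 3 highest and 3 lowest genes of each partner list. The genes, lists and tests were chosen with earlier results of these data known. Alternatives were scaling by total counts, by upper quartiles or by the size factors of DESeq2 1.42.0, a larger prior (5), filters at an average of 1, 50 or 500 reads, folds of 1.1 and 1.5, intervals excluding 0, summed counts, log2(RPKM + 0.01), the GC fit, and leaving out chromosome 12 or near-identical genes. Alternatives for the 2-fold counts and for paralog ratios by library were added after the data were seen. Fibroblast markers were also summed and came to 10.9 to 16.6 CPM.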

Additional observations from a re-analysis of the deposited data

How the results depend on the processing

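The 1-library groups allow no replicate to be left out. No paired analysis was possible because each group is 1 library. Of the values that answer a comparison, 159 stayed close to the main value under the alternatives and 38 moved. Of the values of single genes, 786 stayed, 122 moved and 2 that had been past the threshold changed sign, of which 103 moved and both changed sign under the fit to GC content and exon length. Counting values within the threshold too, 48 changed sign, 39 of them under that fit. Under it the mutant to wild-type ratio was -0.0157 for *Eif4g2* and 0.0475 for *Eif6*. Counts of genes follow the order knockdown against control, wild-type rescue against knockdown, mutant rescue against knockdown, mutant against wild-type rescue, and wild-type rescue against control. At a fold of 1.5 the higher genes numbered 2, 1, 0, 2 and 0 and the lower genes 2, 2, 1, 2 and 2, and at 1.1 they numbered 13, 10, 4, 16 and 15 and 14, 12, 17, 20 and 14. With GC content and length fitted, they numbered 4, 5, 2, 5 and 1 higher and 9, 3, 2, 9 and 3 lower. Without the near-identical *Eif1ad*, *Eif4a3l* and *Eif3j* genes, 2 genes were higher on knockdown, 2 lower after wild-type rescue (with a median log2 ratio of 0.0199), 3 lower after mutant rescue, and 2 higher with the mutant than with the wild-type construct. A filter at an average of 1 read gave 2 genes higher after mutant rescue, and one at 500 gave 1 gene lower in the wild-type rescue than in the control. Scaling by total counts gave 7 genes higher in that last comparison. Past 2-fold, 1 gene (*Eif4a3l2*) was higher with the mutant than with the wild-type construct under the GC fit and none otherwise. Counted as reads without division by exon length, the control ratios were 1.65 (*Eif4a1* over *Eif4a2*), 16.6 (*Eif4g1* over *Eif4g3*), 1.39 (*Eif4e* over *Eif4e2*), 34.5 (*Eif5a* over *Eif5a2*), 29.9 (*Eif1* over *Eif1b*), 1.72 (*Eif1a* over *Eif1ax*) and 0.760 (*Eif4ebp1* over *Eif4ebp2*). The cause of the other moves was not tested. Depth limits *Eif4e3* and *Eif4ebp3* most.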

Other observations

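Of the *Eif* rows left out as pseudogenes, 2 had more than a few reads. *Eif4a-ps4*, on chromosome 1, had 12245, 11555, 12232 and 10827 reads in the scrambled control, knockdown, wild-type rescue and mutant rescue, and *Eif3s6-ps2* had 221, 279, 267 and 236. The log2 ratio of *Eif4a-ps4* to the control was -0.27 in the knockdown and -0.06 in the wild-type rescue. The other 8 such rows had at most 8 reads in a library.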
